A study of Homo sapiens with 30 samples.

Results

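The polo-like kinases are serine/threonine kinases that carry a polo-box domain with which they dock onto their substrates. The 4 genes PLK1, PLK2, PLK3 and PLK4 were followed here across 30 RNA-seq libraries. They were chosen by name, as the rows of the raw count table whose Ensembl identifiers map to them, and make up 4 of its 39359 genes. All 4 passed the filter on low counts, as did 20875 genes in all. PLK1 drives entry into mitosis, spindle assembly and cytokinesis, and PLK4 starts the duplication of centrioles. PLK2 and PLK3 are known as genes induced by stress, DNA damage and serum, and PLK2 is a known transcriptional target of p53. The comparison of interest was therefore that of PLK2 and PLK3 with the mitotic PLK1 and PLK4 as the state of p53 changed.

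The cells were H1299, a human lung carcinoma line that lacks p53, transiently transfected with a vector and sorted for the GFP it also carried. The pGFP group received GFP alone. Wild type p53 cells received a vector for p53 and GFP under inducible TRE-tight promoters, and RW mutant p53 cells received the same vector with the R248W substitution. Cells of the p53 O6-meG group received a vector that codes for wild type p53 and holds one O6-methylguanine on the template strand of the codon changed in the RW mutant, which the cell's own repair protein AGT (gene MGMT) can remove. The p53 TM group, named for transcriptional mutagenesis, received this O6-meG vector together with 10 µM of the AGT inhibitor O6-benzylguanine (O6-bzG), and was the only group to receive the inhibitor, so that effects of the drug and of the lesion left in place cannot be told apart by a drug control. Each group was collected at 6 h and 24 h in 3 biological replicates, and p-values therefore measure the spread between separate transfections of 1 line.

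Library totals lay between 32302699 and 71950532 counts, with a median of 44424643. Levels are given as CPM, counts scaled to the library size after TMM normalisation. MGMT stood at 11.2 to 20.4 CPM throughout. Of the markers of the line, VIM stood at 2255 CPM or more, KRT18 at 292 or more and KRT8 at 119 or more. Of 9 listed markers of differentiated lung epithelium, leukocytes and endothelium found in the table, SFTPB, SFTPC, SCGB1A1, PTPRC and CDH5 were at 0 in 17 to 24 of the 30 libraries and the highest of all 9 was CD14 at 2.05 CPM. In 2 of the 6 h libraries, which are replicate 2 of the p53 TM group and of the p53 O6-meG group, the first part of the title names the other group than its second part and the genotype field do. The count table names their columns after that first part. They were kept in the groups that the genotype field gives. Their values go against those groups. PLK2 was at 57.0 CPM in the O6-meG library and at 197 CPM in the TM library. CDKN1A, which encodes the cell cycle inhibitor p21, was at 50.0 and 249 CPM. The other 6 h replicates had CDKN1A at 268 and 261 CPM (O6-meG) and at 65.8 and 57.7 CPM (TM). Every 6 h result on these groups is therefore given with all 30 libraries and again with both left out. Their removal also narrowed the standard errors elsewhere, since all groups share 1 fit: that of the PLK2 difference between wild type p53 and pGFP at 6 h went from 0.35 to 0.13 on the log2 scale.

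The promoters of PLK1 and PLK2 are shown as those of 1 member that fell and 1 that rose with wild type p53 at 24 h. PLK4, whose sequence is not shown, fell more (log2 fold change -0.84, against -0.36 for PLK1). Both windows are from RefSeq promoters of GRCh38.p14 and leave out bases that lie in exons of coding transcripts. The PLK1 window is chr16:23678639-23678868 on the plus strand, and capitals mark a CHR (TTTGAA or TTTAAA) at 148, 88 and 29 bases and a CCAAT box (CCAAT) at 73 bases before the listed start. The PLK2 window is chr5:58460140-58460336, read on the minus strand, and capitals mark a p53 half-site at 132 bases before the listed start.
PLK1 promoter: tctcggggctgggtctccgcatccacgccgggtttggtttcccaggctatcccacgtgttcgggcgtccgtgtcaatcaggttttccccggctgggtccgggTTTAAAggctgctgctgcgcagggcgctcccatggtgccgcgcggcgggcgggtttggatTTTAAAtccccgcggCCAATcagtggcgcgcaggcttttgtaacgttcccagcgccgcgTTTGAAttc
PLK2 promoter: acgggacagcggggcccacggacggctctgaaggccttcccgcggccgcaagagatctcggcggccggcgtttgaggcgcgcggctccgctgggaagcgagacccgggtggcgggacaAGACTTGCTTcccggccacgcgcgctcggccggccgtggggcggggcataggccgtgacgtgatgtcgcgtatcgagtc
Both strands were searched over the 250 bases before each listed start. Among 35116 such windows, 21.9% held a CHR, 32% a CCAAT box, 5.57% a p53 half-site and 2.32% an E2F site (TTTCCCGC, TTTGGCGC or TTTCGCGC). None of these motifs was found in the PLK3 window, and of 3 listed starts of PLK4 the most downstream one had 1 CCAAT box. Such matches describe the sequence and do not show binding.

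In hg38, PLK1 (ENSG00000166851.14) lies at chr16:23677656-23690367 on the plus strand, PLK2 (ENSG00000145632.14) at chr5:58453982-58460139 on the minus strand, PLK3 (ENSG00000173846.12) at chr1:44800377-44805990 on the plus strand and PLK4 (ENSG00000142731.10) at chr4:127880893-127899224 on the plus strand. Counts were made over exons. Exons of PLK1 overlap ERN2 and the long non-coding RNA ENSG00000261266 on the opposite strand, and the last exon region of PLK3 overlaps DYNLT4, also on the opposite strand. Over the 30 libraries these neighbours reached at most 13, 2 and 3 counts, against 270 counts or more for PLK3 and 2319 or more for PLK1.

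Wild type p53 raised PLK2 and PLK3 within 6 h, whereas PLK1 and PLK4 did not pass the test at that time. In the pGFP libraries at 6 h, PLK2 stood at 49.7, 45.7 and 52.8 CPM. With wild type p53 it stood at 216, 211 and 218 CPM. Every wild type p53 library thus lay far above every pGFP library, and the log2 fold change was 2.12 ± 0.35 (SE, n = 3 in each group; adjusted p = 0.000538, edgeR quasi-likelihood test). PLK3, whose product acts in stress and DNA damage responses, went from 7.51, 7.37 and 7.63 CPM to 25.9, 22.4 and 24.4 CPM. These groups did not overlap either, and the log2 fold change was 1.69 ± 0.20 (adjusted p = 1.69e-05). PLK1 was at 106, 118 and 113 CPM with pGFP and at 103, 114 and 115 CPM with wild type p53, a log2 difference of -0.02 with a 95% interval from -0.29 to 0.24 (adjusted p = 0.966). PLK4 was at 70.8, 63.3 and 71.8 CPM with pGFP and at 64.6, 52.3 and 55.5 CPM with wild type p53. The 2 PLK4 ranges overlapped and the log2 difference was -0.26 ± 0.14 (adjusted p = 0.337). Of the 4 genes 2 passed, against 8.75% of all genes tested in this comparison. In a pool of sorted cells, fewer cells that carry a transcript and less of it per cell cannot be told apart.

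**Figure D1:**
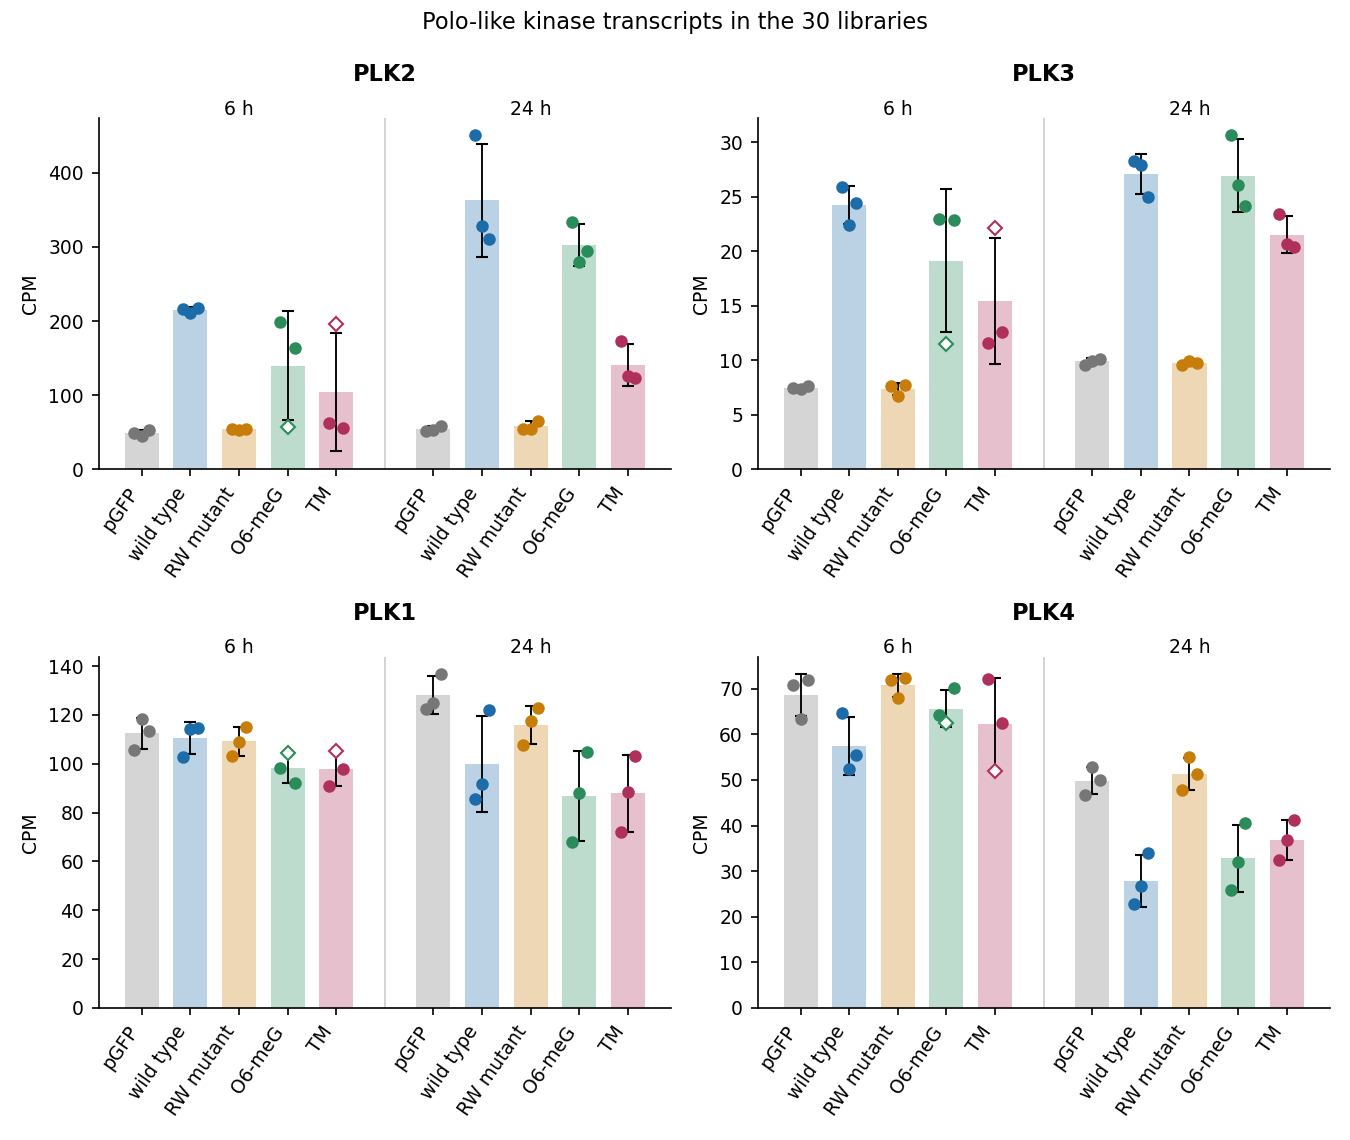
CPM of PLK2, PLK3, PLK1 and PLK4 (y axes from 0) in the 5 groups at 6 h and 24 h (x axis). Bars and whiskers are means and SDs of 3 libraries, points are libraries from replicate 1 at the left to 3 at the right, and open diamonds are the 2 libraries with conflicting titles. PLK2 reached 311 to 451 CPM with wild type p53 at 24 h, whereas PLK4 fell to 22.8 to 33.9 CPM.

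At 24 h all 4 genes passed the test with wild type p53, PLK2 and PLK3 upwards and PLK1 and PLK4 downwards, against a background of 34.9% of genes. PLK2 stood at 52.2, 53.2 and 58.6 CPM with pGFP and at 451, 328 and 311 CPM with wild type p53. The groups were wide apart, with a log2 fold change of 2.73 ± 0.36 (adjusted p = 1.31e-06). PLK3 stood at 9.62, 9.97 and 10.2 CPM and at 28.3, 27.9 and 25.0 CPM, again without overlap, with a log2 fold change of 1.45 ± 0.20 (adjusted p = 2e-06). PLK4 stood at 46.8, 52.7 and 49.9 CPM with pGFP and at 22.8, 26.7 and 33.9 CPM with wild type p53. All 3 wild type p53 libraries lay below all 3 pGFP libraries, and PLK4 fell by 0.84 ± 0.14 on the log2 scale (adjusted p = 3.06e-05). PLK1 stood at 122, 125 and 137 CPM with pGFP and at 85.6, 91.7 and 122 CPM with wild type p53. The highest wild type p53 library lay only just below the lowest pGFP library, and PLK1 fell by 0.36 ± 0.13 (adjusted p = 0.0325). The PLK1 call was lost when replicate 1 or 2 of wild type p53 or replicate 2 or 3 of pGFP was left out (adjusted p from 0.0562 to 0.131), and its direction stayed.

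With RW mutant p53 none of the 4 genes passed the test against pGFP. PLK2 lay between 52.6 and 55.2 CPM at 6 h and between 54.1 and 66.0 CPM at 24 h, and PLK3 between 6.75 and 7.72 CPM and between 9.59 and 9.98 CPM. PLK1 lay between 108 and 123 CPM at 24 h, in each replicate below the pGFP library of its number (122 to 137 CPM), with a log2 difference of -0.14 and a 95% interval from -0.41 to 0.12. No member passed edgeR's test at either time, against 0.00479% of all genes at 6 h and 0.00479% at 24 h. No member had an unadjusted p under 0.05 and none passed with DESeq2 (0 of 4 at both times). The 95% interval of the log2 difference in PLK2 at 24 h ran from -0.61 to 0.79, and from -0.17 to 0.35 with both conflicting libraries left out. That of PLK4 ran from -0.24 to 0.33.

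Cells with the O6-meG vector and no inhibitor moved in the same directions as those with wild type p53. At 24 h PLK2 was at 334, 279 and 295 CPM, PLK3 at 30.7, 26.1 and 24.2 CPM, PLK1 at 68.1, 87.9 and 105 CPM and PLK4 at 25.8, 32.0 and 40.6 CPM. None of these ranges overlapped that of pGFP, and all 4 genes passed the test (background 29.3%). The log2 fold changes were 2.47 ± 0.35 for PLK2 (adjusted p = 6.41e-06), 1.44 ± 0.20 for PLK3 (adjusted p = 3.19e-06), -0.56 ± 0.13 for PLK1 (adjusted p = 0.00168) and -0.60 ± 0.14 for PLK4 (adjusted p = 0.00151). At 6 h the replicates other than the one with conflicting titles had PLK2 at 199 and 164 CPM and PLK3 at 22.9 and 22.9 CPM. With all libraries, PLK3 was the only member to pass at 6 h, with a log2 fold change of 1.35 ± 0.20 (adjusted p = 0.000774; background 0.35%), and PLK2 just missed the threshold (1.50 ± 0.34, adjusted p = 0.0505). Once both conflicting libraries were left out, both passed, PLK2 with 1.88 ± 0.14 (adjusted p = 5.31e-10) and PLK3 with 1.61 ± 0.10 (adjusted p = 1.34e-11), against 4.85% of genes. No member differed from wild type p53 by edgeR at 6 h (background 0.00479%) or at 24 h (background 0%). No member had an unadjusted p under 0.05 there, none passed with DESeq2, and the interval for PLK2 at 24 h was wide, from -0.95 to 0.42 on the log2 scale. Leaving out both conflicting libraries, no member passed at 6 h either (0 of 4, also at an unadjusted p under 0.05 and with DESeq2; 0 of 21335 genes), with PLK2 at -0.25 ± 0.14 (adjusted p = 0.553), and the 24 h interval of PLK2 ran from -0.52 to -0.01 (adjusted p = 0.992).

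**Figure D2:**
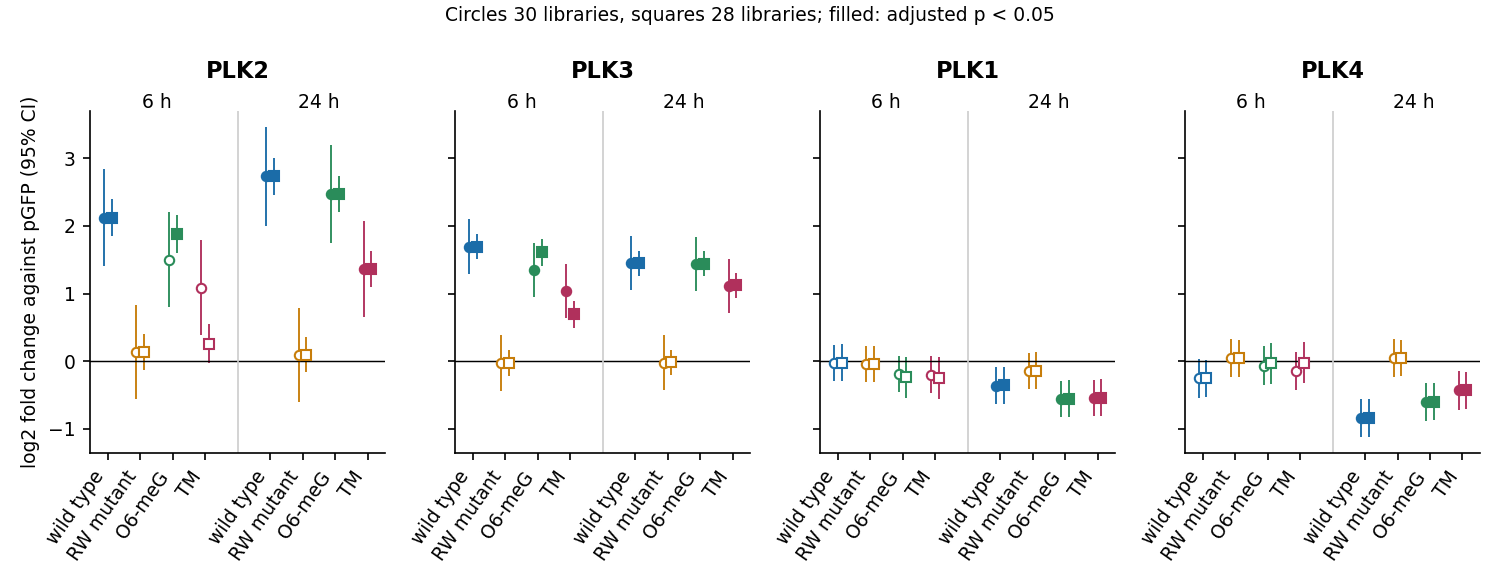
Log2 fold changes against pGFP (y axis) with 95% confidence intervals from edgeR for each vector at 6 h and 24 h. Circles use 30 libraries, squares the 28 without conflicting titles, and filled symbols have an adjusted p under 0.05. PLK2 and PLK3 lie above 0 with every vector that codes for wild type p53 at 24 h, PLK1 and PLK4 lie below it, and the RW mutant intervals include 0 for all 4 genes.

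With O6-bzG added, PLK2 was the member that lay furthest from wild type p53. At 24 h the p53 TM libraries had PLK2 at 173, 126 and 123 CPM, above every pGFP library (52.2 to 58.6 CPM) and below every wild type p53 library (311 to 451 CPM). The log2 difference was 1.36 ± 0.34 against pGFP (adjusted p = 0.0108) and -1.37 ± 0.34 against wild type p53 (adjusted p = 0.00606). Leaving out both conflicting libraries gave -1.37 ± 0.13 for the second (adjusted p = 2.67e-07). PLK3 was at 23.5, 20.7 and 20.4 CPM, likewise between the 2 groups without overlap. It passed against pGFP (1.12 ± 0.19, adjusted p = 0.000599) but not against wild type p53 (-0.33 ± 0.19, adjusted p = 0.24). The latter was -0.33 ± 0.09 with both conflicting libraries left out (adjusted p = 0.00701). A test of PLK2 against PLK3 was not made.

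Both mitotic members were lower in p53 TM than with pGFP at 24 h. PLK4 was at 32.5, 36.9 and 41.2 CPM, below every pGFP library but overlapping wild type p53, and passed in both comparisons, with -0.43 ± 0.14 against pGFP (adjusted p = 0.0485) and 0.41 ± 0.14 against wild type p53 (adjusted p = 0.0417). PLK1 was at 72.0, 88.4 and 103 CPM, below every pGFP library (-0.54 ± 0.13, adjusted p = 0.00767). It did not pass against wild type p53 (-0.18, 95% interval -0.45 to 0.08, adjusted p = 0.364), although each replicate was lower than the wild type p53 library of its number. With the replicate block this difference was -0.18 ± 0.07 (adjusted p = 0.0561), and it passed with the block and both conflicting libraries left out (adjusted p = 0.048). PLK1 and PLK4 were not tested against each other. In all, 4 members passed against pGFP (background 9.2%) and 2 against wild type p53 (background 18.5%, or 3 members against 21.2% with both conflicting libraries left out). Single libraries decided some of these calls. Without replicate 1 of p53 TM, the adjusted p against pGFP was 0.0898 for PLK1, 0.0694 for PLK2 and 0.25 for PLK4, so that PLK3 was the only member left. The PLK4 call against pGFP was also lost without any 1 of the 3 pGFP libraries, without replicate 2 of p53 TM or without replicate 2 of p53 O6-meG at 6 h (adjusted p from 0.0533 to 0.167). The PLK4 call against wild type p53 was lost without replicate 1 or 2 of wild type p53 or replicate 2 or 3 of p53 TM (adjusted p from 0.0971 to 0.191).

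Set against p53 O6-meG at 24 h, which differs from p53 TM only in the drug, PLK2 was again lower. The p53 TM range of 123 to 173 CPM did not overlap that of 279 to 334 CPM, and the log2 difference was -1.11 ± 0.34 (adjusted p = 0.0478; 1 member, background 6.5%). That call was lost without any 1 of the O6-meG libraries or without replicate 2 or 3 of p53 TM (adjusted p from 0.0775 to 0.169). With both conflicting libraries left out, PLK2 (-1.11 ± 0.13, adjusted p = 4.64e-05) and PLK3 (-0.32 ± 0.09, adjusted p = 0.0156) passed, against 10% of genes. PLK1 and PLK4 differed by 0.02 and 0.17 on the log2 scale and did not pass (adjusted p = 0.967 and 0.524).

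As a share of the step from the mean of pGFP to the mean of wild type p53 at 24 h, the p53 TM libraries reached 38.3%, 23.2% and 22.1% for PLK2. For PLK3 they reached 79.0%, 63.0% and 61.0%, and for PLK4 78.8%, 58.5% and 38.9%. Each PLK2 value lay below each PLK3 and PLK4 value, for PLK4 only just (38.3% against 38.9%). The order of PLK2 and PLK4 depends on the CPM scale used for these shares. On the log2 scale, PLK2 changed against pGFP by 1.36 in p53 TM and 2.73 with wild type p53. PLK4 changed by -0.43 and -0.84, about the same share, and PLK3 by 1.12 and 1.45, a larger one. The p53 O6-meG libraries reached 72.8% to 90.4% for PLK2 and 83.1% to 121% for PLK3, and the RW mutant libraries -0.19% to 3.66% for PLK2. For PLK1 the step is small beside the spread, and the p53 TM libraries lay at 88.3% to 198% and the RW mutant libraries at 18.8% to 72.6%. These shares describe the libraries and share the pGFP and wild type p53 means.

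At 6 h the p53 TM result depended on the library with conflicting titles. The other replicates had PLK2 at 62.2 and 56.1 CPM, just above the pGFP libraries (45.7 to 52.8 CPM), and PLK3 at 11.6 and 12.6 CPM, clear of the pGFP range of 7.37 to 7.63 CPM. With all 30 libraries PLK3 passed against pGFP (1.04 ± 0.20, adjusted p = 0.0327; 1 member, background 0.0814%) and PLK2 did not (1.09 ± 0.34, adjusted p = 0.389). With both conflicting libraries left out, PLK3 passed with a smaller value (0.69 ± 0.10, adjusted p = 0.000535; background 0.202%) and PLK2 did not (0.26 ± 0.14, adjusted p = 0.896). The PLK3 call of the full set was lost without any 1 pGFP library at 6 h or without replicate 2 of p53 TM (adjusted p from 0.155 to 0.283). Against wild type p53 no member passed edgeR's test with all libraries (background 0.0766%), although PLK2 and PLK3 had unadjusted p under 0.05 and DESeq2 called 1 of the 4. With both left out, PLK2 fell by 1.86 ± 0.15 (adjusted p = 5.43e-09) and PLK3 fell by 1.00 ± 0.10 (adjusted p = 9.96e-08), against 10.9% of genes. Likewise, p53 TM and p53 O6-meG did not differ in any member with all libraries (background 0%; 0 of 4 with an unadjusted p under 0.05 and 0 with DESeq2). Without the pair, PLK2 was lower by a log2 difference of -1.62 ± 0.16 (adjusted p = 2.1e-07) and PLK3 by -0.92 ± 0.11 (adjusted p = 2.74e-06; background 4.1%). PLK1 and PLK4 did not pass in any of these 6 h comparisons, with or without the pair.

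Time alone moved PLK4 most. In pGFP cells PLK4 fell from 63.3 to 71.8 CPM at 6 h to 46.8 to 52.7 CPM at 24 h, by 0.46 ± 0.14 on the log2 scale (adjusted p = 0.00877), without overlap. It was the one member that passed (background 40.1%). With both conflicting libraries left out PLK3 also rose, by 0.40 ± 0.09 (adjusted p = 0.00103; 2 members, background 41.2%), and with the replicate block PLK1 passed beside PLK4 (0.19 ± 0.07, adjusted p = 0.0304). In wild type p53 cells PLK4 fell further, from 52.3 to 64.6 CPM to 22.8 to 33.9 CPM, by 1.05 ± 0.14 (adjusted p = 1.34e-06; 1 member, background 45%). PLK2 rose from 211 to 218 CPM to 311 to 451 CPM, which missed the threshold with all libraries (0.76 ± 0.33, adjusted p = 0.0686) and passed with both conflicting libraries left out (0.75 ± 0.12, adjusted p = 2.61e-05; 2 members, background 46%).

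Whether the effect of wild type p53 over pGFP itself differed between the times was tested as an interaction. No member passed edgeR's or DESeq2's test with all libraries (background 4.9%), and PLK4 alone had an unadjusted p under 0.05, with a log2 difference of -0.58 ± 0.20 (adjusted p = 0.0863). At 24 h libraries that share a replicate number deviated together, and with the replicate number as a block PLK4 (-0.60 ± 0.13, adjusted p = 0.0035) and PLK1 (-0.35 ± 0.10, adjusted p = 0.0232) passed. With both conflicting libraries left out, PLK2 was the member that passed (0.61 ± 0.18, adjusted p = 0.0385; background 6.51%). For p53 TM no member passed with all libraries (background 0.00479%; 0 of 4 with an unadjusted p under 0.05 by edgeR and 0 called by DESeq2). With both left out, the effect on PLK2 was larger at 24 h than at 6 h by 1.10 ± 0.19 (adjusted p = 0.000936; background 3.1%), and that on PLK3 by 0.43 ± 0.13 (adjusted p = 0.0892). The shared deviation of the 24 h libraries could be read in the members. PLK1 and PLK4 were lowest in replicate 1 in all 5 groups, and with wild type p53, p53 O6-meG and p53 TM the same replicate had the highest PLK2 and PLK3.

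Levels of different genes were compared per kb of merged exon length. In pGFP cells at 24 h PLK1 was the most abundant member at 26.9 ± 1.62 CPM per kb (mean ± SD, n = 3), ahead of PLK2 at 11.8 ± 0.741 and PLK4 at 11.1 ± 0.66, whose ranges overlapped, and PLK3 was lowest at 2.98 ± 0.0836. With wild type p53 at 24 h PLK2 led at 78.2 ± 16.4 CPM per kb, PLK1 followed at 21.0 ± 4.12, and PLK3 at 8.14 ± 0.55 and PLK4 at 6.21 ± 1.26 could not be ordered across the 3 libraries. The ratio of PLK2 to PLK1 per kb was 0.436 to 0.439 with pGFP, 2.60 to 5.40 with wild type p53, 2.88 to 5.02 with p53 O6-meG and 1.22 to 2.46 with p53 TM. It was below 1 in all pGFP and RW mutant libraries at both times and above 1 in all wild type p53 libraries. The ratio of PLK3 to PLK4 went from 0.255 to 0.277 with pGFP to 0.992 to 1.67 with wild type p53 and 0.666 to 0.974 with p53 TM. With the longest or the MANE Select transcript as length, PLK1 stayed first in all pGFP and RW mutant libraries, PLK2 stayed first in all wild type p53 libraries. The order of PLK2 and PLK4 in pGFP, RW mutant and single p53 O6-meG and p53 TM libraries at 6 h and in pGFP and RW mutant libraries at 24 h, of PLK3 and PLK4 in single wild type p53 and p53 TM libraries at 24 h, and of PLK1 and PLK2 in 1 p53 TM library at each time changed with the length used.

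**Figure D3:**
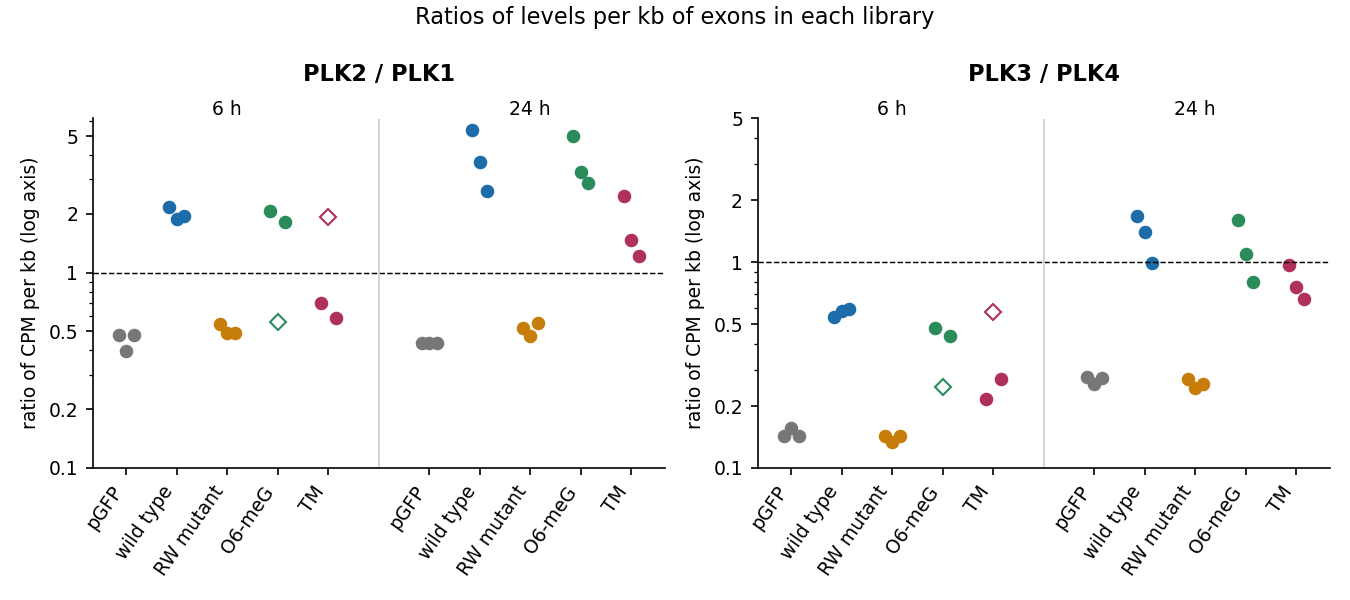
Ratio of CPM per kb of merged exon length (log axes) of PLK2 to PLK1 and of PLK3 to PLK4 in each library at 6 h and 24 h; open diamonds are the libraries with conflicting titles and the dashed line marks equal levels. The PLK2 to PLK1 ratio lies below 1 in all pGFP libraries and at 2.60 to 5.40 with wild type p53 at 24 h.

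Most listed genes that work with PLK1 in mitosis fell with wild type p53 at 24 h. Of 21 listed partners and substrates of PLK1, 15 fell and 1 rose (median log2 fold change -0.44), where of all 20875 genes tested 3044 fell and 4241 rose (median 0.01). CDK1, the kinase of mitotic entry, fell by 1.32 ± 0.16 (adjusted p = 4.3e-07) and FBXO5, an inhibitor of the anaphase-promoting complex, fell by 1.07 ± 0.12 (adjusted p = 2.98e-07). WEE1, which holds CDK1 inactive, was the one to rise, by 1.00 ± 0.19 (adjusted p = 0.000142). At 6 h, 1 of the 21 fell and 2 rose, where of all genes 232 fell and 1594 rose, a like share of rises. FBXO5 fell by 0.67 ± 0.12 (adjusted p = 0.000947), WEE1 rose by 1.14 ± 0.19 (adjusted p = 0.000544) and KIF20A, a kinesin of cytokinesis, rose by 0.43 ± 0.10 (adjusted p = 0.00547). In p53 TM at 24 h, 4 fell and none rose against pGFP (median -0.30), and 4 were higher and 2 lower than with wild type p53 (median 0.12). Of all genes 311 fell and 1609 rose in the first of these comparisons, and 1767 were higher and 2093 lower in the second. The lower partners were at about the share of all genes in the second comparison only. None of the 21 passed with RW mutant p53.

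Of 15 listed genes of centriole duplication around PLK4, 8 fell and 3 rose with wild type p53 at 24 h (median -0.36). Of all 20875 genes tested 3044 fell and 4241 rose, so that the rises were at about the share of all genes. SASS6, which forms the cartwheel of the new centriole, fell by 1.09 ± 0.10 (adjusted p = 1.95e-08) and STIL, its partner and a substrate of PLK4, fell by 0.82 ± 0.13 (adjusted p = 1.89e-05). CEP120, a protein of centriole elongation, rose by 0.95 ± 0.15 (adjusted p = 1.31e-05) and FBXW5, a subunit of a ubiquitin ligase, rose by 0.30 ± 0.10 (adjusted p = 0.0189). In p53 TM at 24 h, 1 fell and 1 rose against pGFP (median -0.06, or 4 and 1 with both conflicting libraries left out), and 7 were higher and none lower than with wild type p53 (median 0.24). Of all genes 311 fell and 1609 rose against pGFP, or 359 and 1921 of 21335 with both left out. Against wild type p53, 1767 of all genes were higher and 2093 lower.

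PLK2 and PLK3 were set beside 14 p53 targets of arrest and the damage response and 14 immediate early genes. With wild type p53 at 24 h 14 of 14 targets rose (median log2 fold change 2.14), the largest being BTG2, an antiproliferative gene (5.05 ± 0.80, adjusted p = 1.77e-05), and CDKN1A (3.68 ± 0.47, adjusted p = 8.71e-07). All 14 also rose in p53 TM (median 1.97). None passed between p53 TM and wild type p53 by edgeR (median -0.14), or 3 were lower with both conflicting libraries left out. A missed threshold does not show equal levels. CDKN1A was at 369, 422 and 289 CPM in p53 TM and at 546, 791 and 513 CPM with wild type p53, without overlap. PLK2 was lower by 1.37 on the log2 scale in that comparison, and was not tested against these targets. Of the immediate early genes 5 rose and none fell with wild type p53 (median 0.16), where 4241 of 20875 genes rose and 3044 fell. The largest rises were those of EGR2 (5.51 ± 0.68, adjusted p = 5.49e-07) and ATF3 (1.03 ± 0.18, adjusted p = 4.05e-05). In p53 TM 4 of the 14 were lower than with wild type p53 (median -0.43), as were 2093 of all genes. FOS, EGR1 and JUN, named after their values were seen, did not pass in either comparison, whereas other genes of the same list did.

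**Figure D4:**
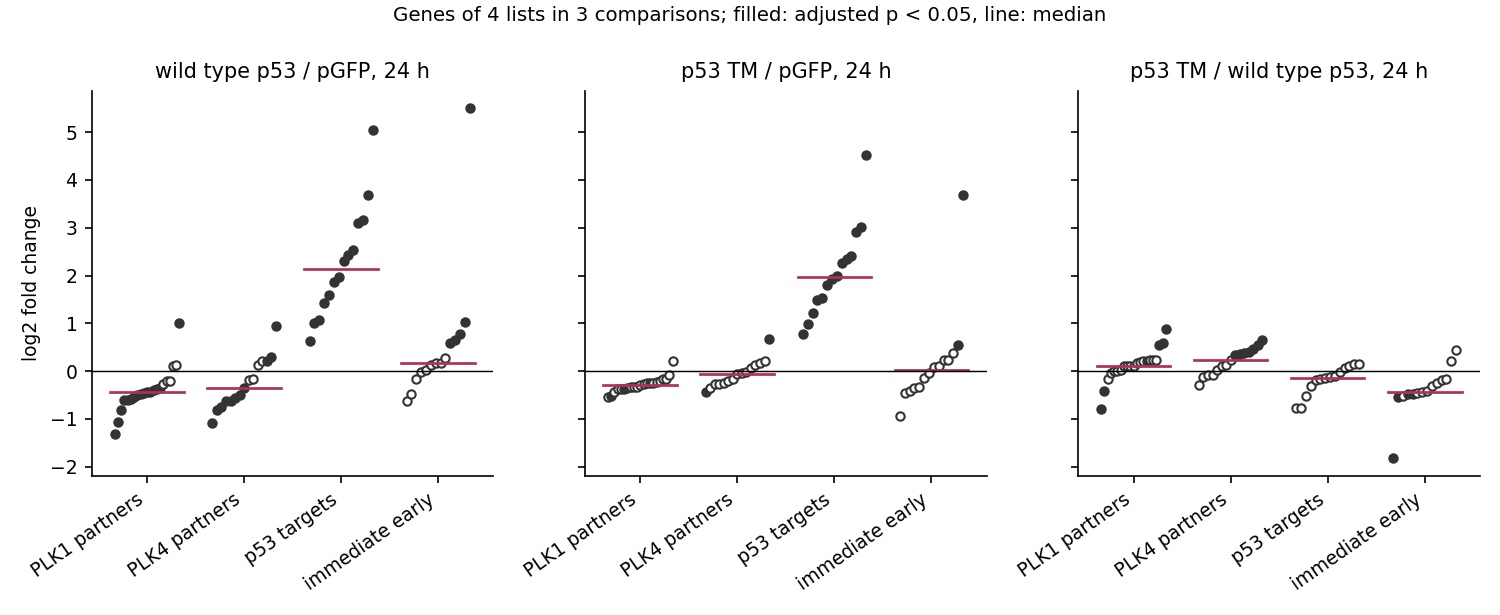
Log2 fold changes (y axes) of the genes of 4 lists in 3 comparisons at 24 h; each point is 1 gene, filled where the adjusted p is under 0.05 by edgeR, and lines are list medians. With wild type p53 all 14 p53 targets lie above 0, and 15 of 21 PLK1 partners and 8 of 15 PLK4 partners are filled below it.

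The fifth gene of the family, PLK5, whose human product lacks a full kinase domain, was barely expressed, and its values rest on few counts. It had 5 to 9 counts per library with pGFP, 21 to 49 with wild type p53 at 6 h and 74 to 117 at 24 h. The groups did not overlap, and PLK5 rose by 2.01 ± 0.38 at 6 h (adjusted p = 0.00115) and 4.03 ± 0.37 at 24 h (adjusted p = 1.24e-08). At 24 h p53 TM libraries held 24 to 31 counts, with a log2 difference to wild type p53 of -2.00 ± 0.30 (adjusted p = 6.99e-05), and RW mutant libraries 3 to 11.

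The genes most like each member were sought over the 28 libraries without conflicting titles, among 11082 genes with a mean of 5 CPM or more, by Pearson's r of log2 CPM after subtraction of the mean of each time. For PLK2 they included NRAV (0.99) and FAM43A (0.989), and for PLK3 they were BTG2 (0.99), BBC3 (0.989) and SESN1 (0.989). For PLK4 they were ERCC6L (0.977), SUV39H1 (0.971) and TTK (0.969), and for PLK1 AURKA (0.918), TACC3 (0.902) and VANGL1 (0.862). Within the family r was 0.95 between PLK2 and PLK3, 0.653 between PLK1 and PLK4, -0.809 between PLK2 and PLK4 and -0.517 between PLK1 and PLK2. These values describe libraries that share groups and replicate numbers, and carry no test.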

How the data were processed

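RNA-seq of 30 libraries of H1299 cells was used. The table used holds the deposited counts, not normalised, which the authors obtained with STAR 2.5.3a on hg38 and featureCounts of Subread 1.5.2 on GENCODE genes, from single reads of a stranded total RNA kit; the strand setting is not given in the sources used here. A second deposited table of normalised values was not used. Groups came from the genotype field, also for 2 libraries whose titles contradict themselves and whose count columns are named for the other group. The labels do not settle which grouping is right, and the PLK2 and CDKN1A values given above go against the one used. Of 39359 identifiers 38904 were matched to symbols, and coordinates and lengths are from GENCODE 44.

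In R 4.3.3, counts were filtered by filterByExpr, normalised by TMM and fitted over all 10 groups with edgeR 4.0.16 (quasi-likelihood test). Benjamini-Hochberg adjustment ran over every gene of a comparison, and a gene passed at an adjusted p under 0.05, with no limit on the fold. An SE is the size of the log2 fold change over the root of its F statistic. All comparisons with pGFP at 1 time share its 3 libraries. Log2 CPM used a prior count of 2. The fit was tested on simulated data with independent libraries and the same dispersion for every gene. These held no deviation shared by replicate number and no exchanged libraries, so they do not show how the fit behaves with either. Members, partner lists and comparisons were chosen with earlier results of these data known. In the partner lists, genes named are the largest 2 rises and 2 falls among those that passed with wild type p53; FOS, EGR1 and JUN were named after their values were seen. DESeq2 1.42.0 was an alternative. Some results are not reported here.

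Replicates 1 to 3 share numbers across groups. After removal of group means, all 30 same-number pairs of 24 h libraries correlated above 0.1 (0.43 to 0.877). At 6 h 17 of 23 did (-0.557 to 0.667). The block held the replicate number within each time, at 6 h as well as at 24 h. No library duplicated another of its group (chi-square per degree of freedom 5.51 or more).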

Additional observations from a re-analysis of the deposited data

How the results depend on the processing

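The counts of the 4 genes that passed did not change by more than 1.5 times under any alternative with wild type p53 at 6 h or 24 h, RW mutant p53, p53 O6-meG against pGFP at 24 h or p53 O6-meG against wild type p53, and no result changed direction past the threshold. Leaving out both libraries with conflicting titles, exchanging their groups, and combining the first with the replicate block or with DESeq2 (both combinations, like the MANE length, were chosen after seeing the data) moved the others. For p53 O6-meG against pGFP at 6 h, 1 gene passed, and 2 did under each of these 4, with the replicate block alone, DESeq2 size factors, every gene with at least 1 count or DESeq2, but 0 with only the groups compared; leaving out single libraries gave 1 to 2. For p53 TM against pGFP the 6 h count went from 1 to 0 with only the groups compared and single libraries gave 0 to 1, while the 24 h count of 4 went to between 1 and 4. For p53 TM against wild type p53 at 6 h it went from 0 to 2 under each of the 4 and to 1 with the replicate block or DESeq2, with single libraries 0 to 2. At 24 h it went from 2 to 4 with the block and both libraries left out, to 1 with DESeq2 size factors or only the groups compared, and to 1 to 2 with single libraries left out. For p53 TM against p53 O6-meG the 6 h count of 0 and the 24 h count of 1 both became 2 under each of the 4, and single libraries gave 0 to 1 at 24 h.

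For pGFP over time the count went from 1 to 2 (both libraries left out, exchanged groups, replicate block, at least 10 counts in every library, DESeq2 with both left out) or 3 (block with both left out, only the groups compared), with single libraries 1 to 2. For wild type p53 over time it went from 1 to 2 (both left out, exchanged groups, DESeq2 size factors, at least 10 counts, only the groups compared) or 3 (block or DESeq2 with both left out), with single libraries 1 to 2. For the change of the wild type p53 effect over time it went from 0 to 1 (both left out, exchanged groups), 2 (replicate block, DESeq2 with both left out, only the groups compared) or 3 (block with both left out), with single libraries 0 to 1. Without replicate 3 of wild type p53 at 24 h PLK4 passed there (adjusted p = 0.0184, edgeR). For that of p53 TM it went from 0 to 1 (both left out, DESeq2 with both left out) or 2 (exchanged groups, block with both left out). With the replicate block alone, 5 gene results gained a call and none lost one: PLK2 for p53 O6-meG against pGFP at 6 h (adjusted p = 0.0288), PLK3 for p53 TM against wild type p53 at 6 h (adjusted p = 0.0467) and the 3 of PLK1 and PLK4 over time given above; the block changed no other call. The cause of these moves was not tested. The lowest count of the 4 genes in a library was 270; an effect of depth was not tested.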
